A study of Mus musculus with 9 samples.

Results

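Cortex from mice lacking Matn3 was compared with wild-type cortex, both taken from the peri-infarct zone 1 day after a transient occlusion of the middle cerebral artery (tMCAO) that lasted 60 min. The comparison took 6 of the 9 libraries of the series, IR_Matn3_ko 1 to 3 (Matn3 knockout, ischemia and reperfusion) against IR_WT 1 to 3 (wild type, same ischemia and reperfusion), selected by their labels. The other 3 libraries came from sham-operated wild-type mice (sham_WT) and entered the statistical model to estimate the spread. Of the 37893 genes in the deposited table, 17247 were expressed highly enough to be tested, with at least 0.5 FPKM (counts scaled by gene length and library size) in at least 3 libraries. The labels give 3 mice per group and name the knockout only as Matn3 -/-, and strain, sex, age, the part of the gene removed and whether controls were littermates are not given in the sources used here. No sham-operated knockout was analysed here, so what the genotype does without ischemia and what it does after it cannot be told apart.

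Matn3 encodes matrilin-3, an adaptor protein of the extracellular matrix that is best known from cartilage, where it bridges collagen fibrils and proteoglycans. In the first days after a stroke the tissue around the infarct fills with activated microglia and macrophages, and astrocytes become reactive and begin to form a glial scar, a border rich in chondroitin sulfate proteoglycans. The design text asks how matrilin-3 restrains that scar.

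Several libraries did not sit evenly with their group. Over all genes tested, log2 levels in IR_WT 1 correlated at 0.9799 to 0.9833 with sham_WT, and at 0.9785 and 0.9782 with IR_WT 2 and 3. With IR_Matn3_ko 1 to 3 the values for IR_WT 1 were 0.9772, 0.9764 and 0.9825, so 1 knockout was as close to it as sham_WT. IR_WT 2 and 3 correlated with each other at 0.9909. IR_WT 1 also lay with or near sham_WT in transcripts of tissues other than brain. B cell genes summed to 212 CPM (a gene's count relative to the TMM-scaled library size) there and 229.7 to 329.6 CPM in sham_WT, against 11.0 to 24.6 CPM in the other 5 ischemic libraries, and cartilage genes to 287 CPM against 30.0 to 46.7 CPM. For cartilage sham_WT was itself divided, at 63.4, 331 and 336 CPM. Small intestine genes ran the other way, at 23.9 CPM in IR_WT 1, 15.9 to 17.7 CPM in sham_WT and 95.2 to 440.5 CPM in the other 5. Xist, the RNA of the inactive X chromosome, followed the same division, at 6.85 CPM in IR_WT 1 and 3.80 to 7.37 CPM in sham_WT against 0.114 to 0.508 CPM elsewhere, while the Y-linked Ddx3y was at 56.8 to 76.2 CPM in all 9. Among the knockouts, the library labelled IR_Matn3_ko 2 had the highest sum of heat shock genes, 11780 CPM against 5259 to 8325 CPM in the other ischemic libraries, and the lowest sum of pan-neuronal genes, 9265 CPM against 12670 to 16640 CPM. Results are therefore also given without IR_WT 1 and without IR_Matn3_ko 2. The tissue label itself held in its defining markers, with Snap25 of neurons at 1413 to 3472 CPM and Slc17a7, the glutamate loader of cortical excitatory neurons, at 840.1 to 1348 CPM over all 9 libraries. Each library held between 53400376 and 68370527 counts in all.

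**Figure D1:**
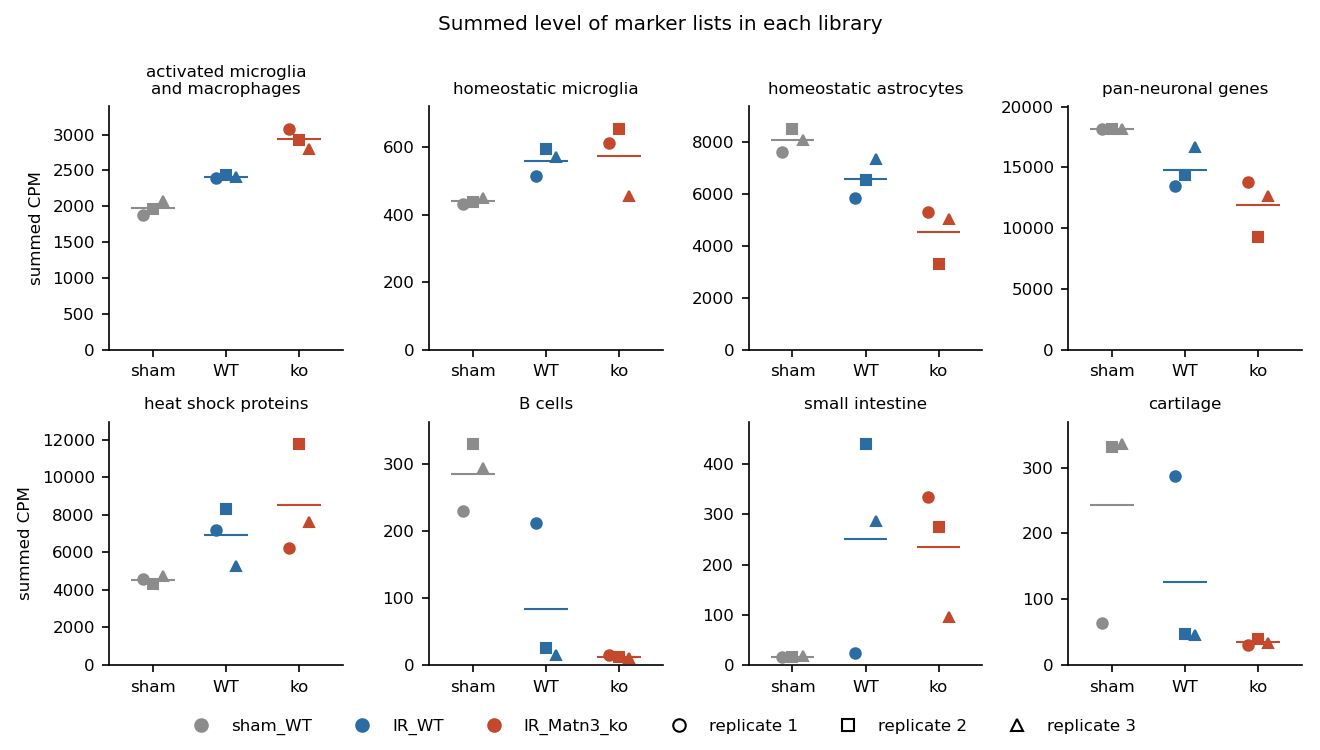
Summed CPM of 8 marker lists (vertical axis of each panel, starting at 0) in sham_WT, IR_WT and IR_Matn3_ko, with 1 point per library, a marker shape per replicate and a horizontal line at the group mean. Activated microglia genes sum to 2797 to 3084 CPM in the knockouts and 2397 to 2435 CPM in IR_WT, while B cell genes set IR_WT replicate 1, at 212 CPM, near sham_WT. The activated microglia sums include Apoe, which runs against the list, at 532, 631 and 850 CPM in IR_WT and 566, 299 and 443 CPM in the knockouts.

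Matn3 (chromosome 12, 8947929 to 8972028, GRCm38) was scarcely expressed in any library. Its counts were 33, 12 and 48 in IR_WT 1 to 3 and 0, 17 and 0 in IR_Matn3_ko 1 to 3. The 17 counts of the library labelled IR_Matn3_ko 2 lay inside the IR_WT range, and 1 sham_WT library also had 0, so the gene cannot check that label. The difference, 0.15 ± 0.088 FPKM (SD, n = 3) in IR_WT and 0.0249 ± 0.0431 FPKM in IR_Matn3_ko, gave p = 0.2 in a two-sided exact permutation test whose smallest possible p is 0.1. A count of 0 allowed up to 0.0496 CPM of library total in IR_Matn3_ko 1 and 0.0491 CPM in IR_Matn3_ko 3, for counting error only. Of the related family members, Matn4, another matrilin, was at 4.89, 5.00 and 6.63 CPM in IR_WT and 4.53, 2.69 and 3.78 CPM in the knockouts, every knockout below every wild type (log2 fold change -0.59 ± 0.22 SE, edgeR adjusted p = 0.299). The 11 genes on the list of matrilins and their partners had a median log2 difference of -0.61, which became 0.06 without IR_WT 1.

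Across all genes, edgeR's quasi-likelihood test called 0 of 17247 genes (0.0%) at an adjusted p under 0.05. The smallest adjusted p was 0.0752, and 2302 genes (13.3%) had an unadjusted p under 0.05, 1137 higher and 1165 lower in the knockout. DESeq2 on the same counts called 668 genes (3.96%), of which 373 were higher (2.21%) and 295 lower (1.75%), and limma on log2(FPKM + 1) called 38 (0.22%). In 648 of the 668 DESeq2 calls the 3 knockout values lay wholly outside the 3 wild-type values. Calls and separation come from the same values, so this is no separate evidence for the calls. Such separation was found for 3079 genes (17.9%), 1624 higher (9.42%) and 1455 lower (8.44%) in the knockout, and the shares 9.42% and 8.44% are the background for each count of separated genes given below. That split depended on scaling, with 2425 higher and 842 lower when CPM was taken from library totals. With 1 library left out, so that 3 face 2, separation is easier to reach: 5138 genes (29.8%) without IR_WT 1, 15.3% higher and 14.5% lower. Without IR_Matn3_ko 2 it was 2488 of the 17247 genes higher (14.4%) and 2290 lower. Counts of list members without a library are read against those shares. Leaving out IR_WT 1 gave 37 edgeR calls (0.215%; 30 higher and 7 lower) and leaving out IR_Matn3_ko 2 gave 61 (0.354%; 26 and 35), and 6 genes were called in both: Cd68, Ccl6, Cd63, Plin2, Ftl1 and Nwd1. With the other leave-outs of a single library edgeR called 0 genes.

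**Figure D2:**
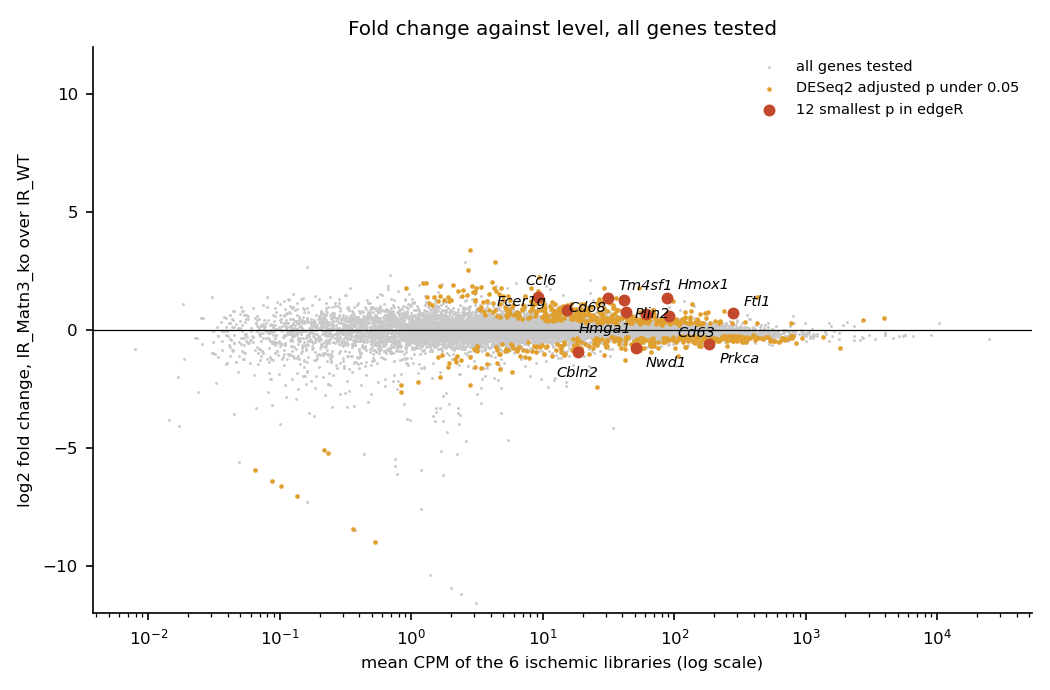
Log2 fold change of IR_Matn3_ko over IR_WT from edgeR (vertical axis) against the mean CPM of the 6 ischemic libraries (horizontal axis, log scale) for 17247 genes, each a grey point. Orange points are the 668 genes called by DESeq2, and red points are the 12 genes with the smallest p in edgeR, 9 above 0 and 3 below.

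Genes known from phagocytes (Cd68, Ccl6, Fcer1g and Cd63) and from heme, iron and lipid storage (Hmox1, Ftl1 and Plin2) were among the 12 with the smallest p and lay higher in the knockout. Of the 12 with the smallest p, each with an edgeR adjusted p of 0.0752, 9 lay higher and 3 lower in the knockout. Of the 100 with the smallest p 69 and 31 were separated in those directions, which selection by p on the same values makes likely. Plin2, which coats lipid droplets (chromosome 4, 86648386 to 86670060), was at 32.0, 20.3 and 20.2 CPM in IR_WT and 56.7, 60.8 and 59.7 CPM in IR_Matn3_ko. The knockout libraries were close to each other and all above the highest wild type, IR_WT 1, with a mean difference of 1.29 ± 0.18 on the log2 scale (SE; edgeR adjusted p = 0.0752, and 0.0063 without IR_WT 1). Hmox1, the heme oxygenase that breaks heme down (chromosome 8, 75093621 to 75100589), was at 48.4, 40.6 and 57.2 CPM in IR_WT and 125, 96.3 and 158 CPM in the knockout, against 4.64 to 7.00 CPM in sham_WT. Its groups were well apart (log2 fold change 1.37 ± 0.20; edgeR adjusted p = 0.0752). Ftl1, the ferritin light chain that stores iron (chromosome 7, 45457944 to 45459884), was at 204, 230 and 194 CPM in IR_WT and 346, 335 and 375 CPM in the knockout, with a log2 fold change of 0.75 ± 0.10.

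Among the phagocyte genes of this set, Cd68, a lysosomal membrane glycoprotein of macrophages (chromosome 11, 69664213 to 69666153), was at 33.1, 34.3 and 28.6 CPM in IR_WT and 56.2, 57.0 and 49.7 CPM in the knockout. Ccl6, a chemokine of myeloid cells (chromosome 11, 83587882 to 83593087), was at 5.32, 5.30 and 4.43 CPM in IR_WT and 12.2, 11.6 and 15.9 CPM in the knockout. The highest wild-type value of each gene lay below the lowest knockout value, and the log2 fold changes were 0.76 ± 0.10 for Cd68 and 1.40 ± 0.18 for Ccl6 (SE; edgeR adjusted p = 0.0752 for both). The tetraspanin Cd63 of late endosomes (log2 fold change 0.61) and Fcer1g, the signalling chain of Fc receptors (0.85), were also separated upwards. Tm4sf1, a membrane protein on the A2-type astrocyte list, stood at 1.36, and the chromatin protein Hmga1 at 0.68.

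Below wild type lay Nwd1, a signalling ATPase of neural tissue (chromosome 8, 72646711 to 72717876), at 59.0, 64.6 and 67.8 CPM in IR_WT and 39.5, 33.7 and 38.9 CPM in the knockout. Its log2 fold change was -0.77 ± 0.09 (SE; edgeR adjusted p = 0.0752, 0.0218 without IR_WT 1 and 0.0188 without IR_Matn3_ko 2). Cbln2, a cerebellin that organises synapses, was at 20.7, 21.6 and 30.2 CPM in IR_WT and 12.7, 12.6 and 12.4 CPM in the knockout (log2 fold change -0.94), where the 3 knockouts were almost equal. Prkca, protein kinase C alpha, was separated downwards too (log2 fold change -0.60).

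**Figure D3:**
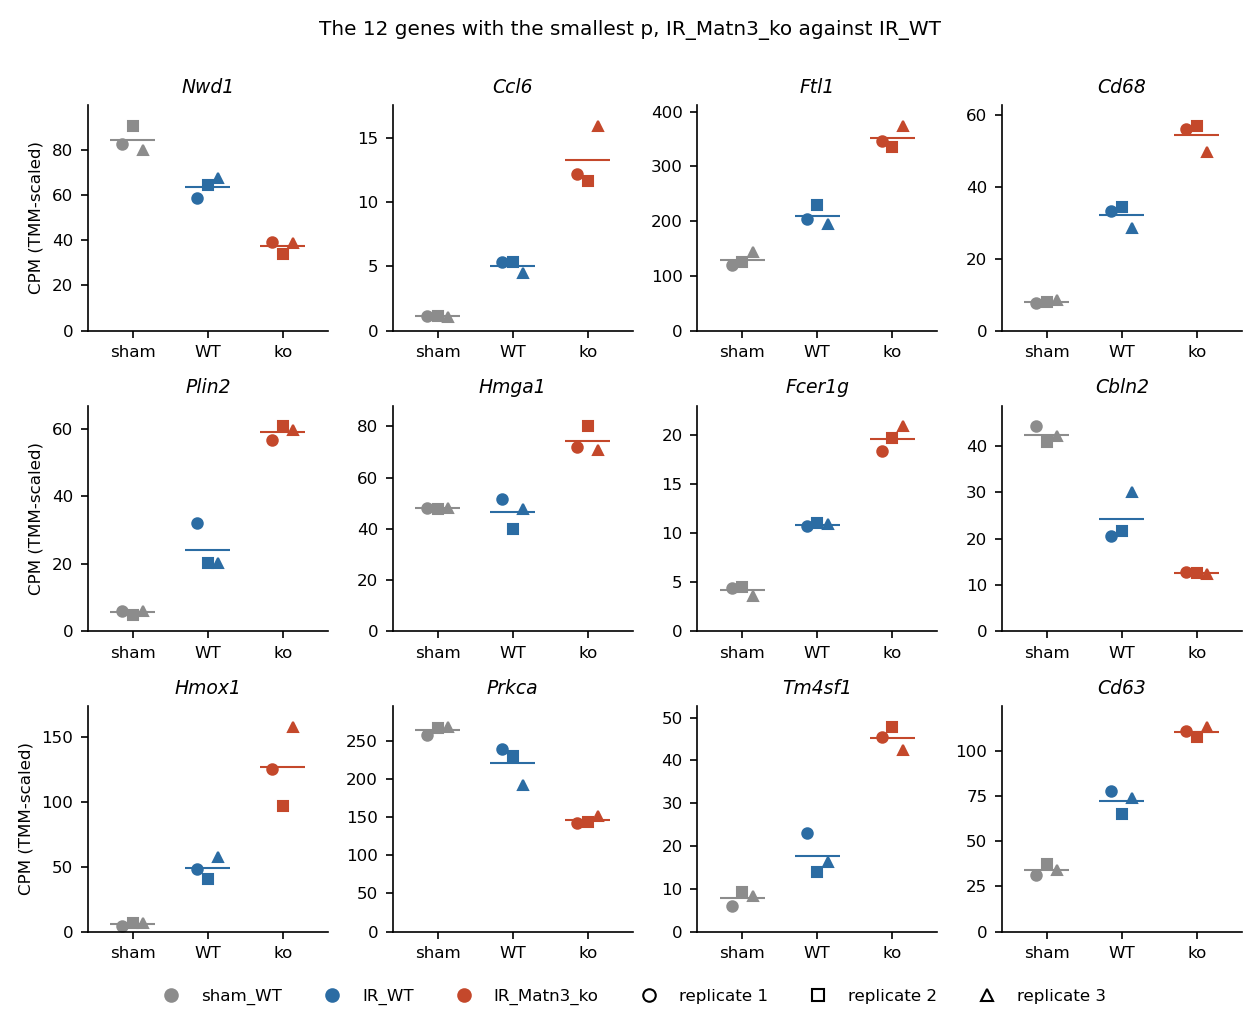
CPM (vertical axis of each panel, starting at 0) of the 12 genes with the smallest p in sham_WT, IR_WT and IR_Matn3_ko, with 1 point per library, a marker shape per replicate and a line at the group mean. In each panel the 3 knockout points lie on 1 side of the 3 IR_WT points, above for 9 genes and below for Nwd1, Cbln2 and Prkca.

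Promoters of 3 of these separated genes are shown because they share a short sequence. RefSeq gave a promoter (GRCm38.p6) for 25 of the 30 genes with the smallest p, and the 250 bases before each start were searched on both strands for 2 motifs. TGANTCA, the letters of an AP-1 site, whose reverse complement is the same, occurred in 5 of the 25 (20.0%) against 6.87% of 27025 promoters. TGACNNNGC, the core of an antioxidant response element, occurred in 4 of the 25 (16.0%) against 10.1%. A match is a description of letters and not a bound site. The promoters of Cd68 (chr11:69666171-69666420, minus strand), C3ar1 (chr6:122856158-122856407, minus strand) and Prdx1 (chr4:116685349-116685598, plus strand) carry TGANTCA, shown in capitals, once in C3ar1 and at more than 1 place in the other two.
Cd68: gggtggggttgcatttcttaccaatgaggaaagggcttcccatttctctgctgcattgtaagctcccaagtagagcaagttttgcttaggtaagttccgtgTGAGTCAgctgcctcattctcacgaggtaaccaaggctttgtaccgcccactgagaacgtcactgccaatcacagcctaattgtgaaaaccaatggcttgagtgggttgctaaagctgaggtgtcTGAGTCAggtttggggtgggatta
C3ar1: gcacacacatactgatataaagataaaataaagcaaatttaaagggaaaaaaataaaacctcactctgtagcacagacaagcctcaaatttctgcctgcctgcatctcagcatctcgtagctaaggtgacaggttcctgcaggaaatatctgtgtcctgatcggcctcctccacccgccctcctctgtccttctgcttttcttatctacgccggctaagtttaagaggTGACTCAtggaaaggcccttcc
Prdx1: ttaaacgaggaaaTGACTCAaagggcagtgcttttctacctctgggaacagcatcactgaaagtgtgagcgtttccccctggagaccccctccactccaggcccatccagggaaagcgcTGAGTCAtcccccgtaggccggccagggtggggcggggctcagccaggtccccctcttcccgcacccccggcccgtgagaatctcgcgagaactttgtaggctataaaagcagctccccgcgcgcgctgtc

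Genes of activated microglia and macrophages lay higher in the knockout. Of the 20 members measured, 12 were separated upwards and none downwards (background 9.42% and 8.44%), DESeq2 called 9 higher, and the median log2 fold change was 0.73, against -0.0013 over all genes tested. It was 0.75 without IR_WT 1 and 0.68 without IR_Matn3_ko 2. Spp1, the secreted phosphoprotein osteopontin (chromosome 5, 104435118 to 104441050), was at 363, 203 and 139 CPM in IR_WT and 572, 711 and 562 CPM in the knockout. IR_WT 1 was the highest wild type, and the log2 fold change reached 1.39 ± 0.30 (SE; edgeR adjusted p = 0.123), or 1.85 (adjusted p = 0.021) without that library. Msr1, a scavenger receptor, was at 28.0, 13.7 and 24.2 CPM in IR_WT and 44.7, 39.0 and 53.6 CPM in the knockout, without overlap (1.06 ± 0.23). The lipase Lpl (0.86 ± 0.17) and the lectin Lgals3 (1.11 ± 0.25) were separated as well, and DESeq2 called Spp1, Msr1, Lpl and Lgals3. Apoe, the lipid carrier apolipoprotein E, and the lysosomal protease Ctsd overlapped between the groups, with log2 fold changes of -0.62 and 0.32.

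Homeostatic microglia genes lay nearly level in the fit to all libraries, and the count of separated members depended on IR_WT 1. None of the 12 was separated in either direction and DESeq2 called none, but 5 were separated downwards without IR_WT 1. The median log2 fold change was -0.13 (-0.15 without IR_WT 1 and -0.24 without IR_Matn3_ko 2). P2ry12, the purine receptor of resting microglia, was at 15.1, 20.7 and 20.9 CPM in IR_WT and 15.4, 14.2 and 11.0 CPM in the knockout. The ranges met (edgeR adjusted p = 0.24; DESeq2 without IR_WT 1 called it, at an adjusted p of 0.00605), and Fcrls, an Fc receptor-like gene of microglia, overlapped as well, at a log2 fold change of 0.14 that became -0.16 without IR_Matn3_ko 2.

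Markers of other leukocytes were measured beside these, since the tissue was not sorted. In bulk tissue, more cells of a type and more RNA per cell cannot be told apart. Of 15 neutrophil and monocyte genes 8 passed the filter, and the sum over all 15 was 59.4 to 75.8 CPM in IR_WT and 77.6 to 110 CPM in the knockout. Itgam alone held much of that sum, at 32.9, 27.4 and 42.3 CPM in IR_WT and 56.0, 47.3 and 62.6 CPM in the knockout. Microglia express Itgam too, and with Itgam set aside the sums of the groups overlapped. Of the 8, 5 had a positive and 3 a negative fold change, such as Plac8 (-0.41), and 2 were separated upwards (5 without IR_Matn3_ko 2). Within that list Chil3, a chitinase-like protein of myeloid cells, was at 1.08, 0.757 and 1.22 CPM in IR_WT and 11.8, 2.37 and 8.79 CPM in the knockout, the lowest knockout being IR_Matn3_ko 2 (log2 fold change 2.91 ± 0.51 SE; edgeR adjusted p = 0.114, and 0.00139 without IR_Matn3_ko 2). S100a9, a defining neutrophil gene, overlapped (0.604 to 1.60 CPM and 0.55 to 4.80 CPM), and the neutrophil surface gene Ly6g was at 0 in 5 of the 6 ischemic libraries. Among border-associated macrophage genes Stab1, a scavenger receptor, was at 29.9 to 36.4 CPM in IR_WT and 44.5 to 56.0 CPM in the knockout. How much of the activated microglia and macrophage difference these cells carried was not tested. B cell genes had a median of -4.30 that became -0.38 without IR_WT 1.

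Most secreted inflammatory factors on the lists lay higher in the knockout. Of 18 chemokines and receptors 10 were separated upwards and 1 downwards, with 7 DESeq2 calls and a median log2 fold change of 1.05 (1.29 without IR_WT 1 and 0.79 without IR_Matn3_ko 2). Ccl2, which draws monocytes (chromosome 11, 82035571 to 82037453), was at 6.71, 6.25 and 4.91 CPM in IR_WT and 13.1, 15.6 and 12.9 CPM in the knockout. Ccl9 was at 16.9, 10.5 and 11.9 CPM in IR_WT and 37.2, 31.3 and 67.0 CPM in the knockout. Neither gene overlapped, and the log2 fold changes were 1.22 ± 0.31 and 1.78 ± 0.36 (SE; edgeR adjusted p = 0.151 and 0.12). Cx3cl1, the neuronal ligand of a microglial receptor, was the 1 on the list separated downwards, at 388 to 516 CPM in IR_WT and 346 to 386 CPM in the knockout. The chemokine genes Ccl21b and Ccl21d, which are not on the list, were separated downwards too. Ccl21b was at 7.93, 6.15 and 10.25 CPM in IR_WT and 0.0803, 4.29 and 0.0785 CPM in the knockout. Ccl21d was at 5.13, 2.30 and 2.99 CPM in IR_WT and 0.0642, 1.04 and 0.0471 CPM in the knockout.

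Of 21 cytokines and receptors 11 were separated upwards and none downwards, DESeq2 called 7, and the median log2 fold change was 0.70. Il1b, the inflammatory cytokine interleukin-1 beta, was at 1.20, 1.60 and 1.62 CPM in IR_WT and 4.35, 2.10 and 9.39 CPM in the knockout. Il1r2, its decoy receptor, was at 0.688, 0.414 and 0.445 CPM in IR_WT and 2.14, 1.59 and 2.45 CPM in the knockout. Il1rn, the receptor antagonist, was at 8.93, 7.80 and 8.59 CPM in IR_WT and 16.5, 18.8 and 76.7 CPM in the knockout. All 3 genes of this interleukin-1 group were separated, with log2 fold changes of 1.84, 2.00 and 2.14 (edgeR adjusted p = 0.151, 0.12 and 0.168), and the highest value of each was in IR_Matn3_ko 3. The alarmin Il33 (1.11) and the macrophage growth factor Csf1 (0.47) were separated upwards too.

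Innate receptors and effectors followed with smaller differences. Of 15 complement genes 5 were separated upwards (10 without IR_Matn3_ko 2) and DESeq2 called 4, at a median log2 fold change of 0.41. The anaphylatoxin receptor C3ar1 was at 28.8, 21.2 and 21.4 CPM in IR_WT and 43.8, 51.6 and 42.3 CPM in the knockout (log2 fold change 0.95 ± 0.15 SE; edgeR adjusted p = 0.0752, and 0.0225 without IR_WT 1). The central complement protein C3 was at 1.81 to 2.39 CPM in IR_WT and 3.53 to 10.7 CPM in the knockout, without overlap. Of 20 NF-kB and Toll-like receptor genes 7 were separated upwards and 1 downwards, among them Tlr2 (1.04) and its adaptor Myd88 (0.58). All 18 interferon-stimulated genes had a positive fold change and 4 were separated (8 without IR_WT 1), such as Ifitm3, a membrane protein that blocks virus entry (0.94), and Bst2 (0.91), with a list median of 0.44 (0.74 without IR_WT 1 and 0.31 without IR_Matn3_ko 2). Of 14 genes of antigen presentation 1 was separated upwards, but 11 were without IR_WT 1, and the NF-kB and Toll-like count then became 14.

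Astrocyte genes split by kind. Genes of homeostatic astrocytes lay lower in the knockout: all 14 had a negative fold change, 8 were separated downwards, DESeq2 called 4, and the median log2 fold change was -0.48. Slc1a2, the main astrocytic glutamate transporter (chromosome 2, 102658659 to 102790784), was at 2025, 2312 and 2559 CPM in IR_WT and 1451, 1083 and 1519 CPM in the knockout. The lowest of all was IR_Matn3_ko 2, and the log2 fold change was -0.77 ± 0.14 (SE; edgeR adjusted p = 0.116), or -0.63 (0.0863) without that library. The water channel Aqp4 was at 88.7, 91.6 and 117 CPM in IR_WT and 76.8, 61.3 and 74.3 CPM in the knockout (-0.48 ± 0.13), again without overlap. Kcnj10, a potassium channel (-0.66), the connexins Gja1 (-0.55) and Gjb6 (-0.66), and the glutamine synthetase Glul (-0.47) were separated as well, each lowest in IR_Matn3_ko 2, and Aldoc, a glycolytic enzyme, overlapped. Without that library the list median was -0.28.

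Markers of reactive astrocytes lay level or higher. All 13 pan-reactive genes had a positive fold change and 5 were separated upwards (10 without IR_Matn3_ko 2), with 4 DESeq2 calls and a median log2 fold change of 0.79. Gfap, the intermediate filament that defines reactive astrocytes (chromosome 11, 102887336 to 102897200), was at 592, 459.7 and 564 CPM in IR_WT and 685, 380.3 and 615 CPM in the knockout. IR_Matn3_ko 2 was the lowest of the 6 and the groups overlapped (log2 fold change 0.06 ± 0.26 SE; edgeR adjusted p = 0.952). By contrast the filament protein Vim was at 113, 75.8 and 89.9 CPM in IR_WT and 188, 194 and 178 CPM in the knockout, with all 3 knockouts above (1.00 ± 0.30; adjusted p = 0.201). The hyaluronan receptor Cd44 (1.34), the protease inhibitor Timp1 (1.46) and the serpin Serpina3n (0.79) were also separated upwards. Vim, Cd44 and Timp1 are made by other cells of injured tissue too.

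Of the 11 A2-type genes tested, a set first described in astrocytes after ischemia, 8 were separated upwards, DESeq2 called 6, and the median was 1.16. Besides Tm4sf1 these included Emp1, an epithelial membrane protein, at 24.9, 10.3 and 12.8 CPM in IR_WT and 28.7, 35.8 and 42.7 CPM in the knockout. They also included Cd14, a lipopolysaccharide co-receptor that myeloid cells express, at 28.2, 22.8 and 21.5 CPM in IR_WT and 67.7, 31.2 and 149.5 CPM in the knockout. Both were separated, and Cd14 differed widely among the knockouts. Of the 12 A1-type genes 2 were separated, with a median of 0.38, and 6 without either of the libraries that stood apart.

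**Figure D4:**
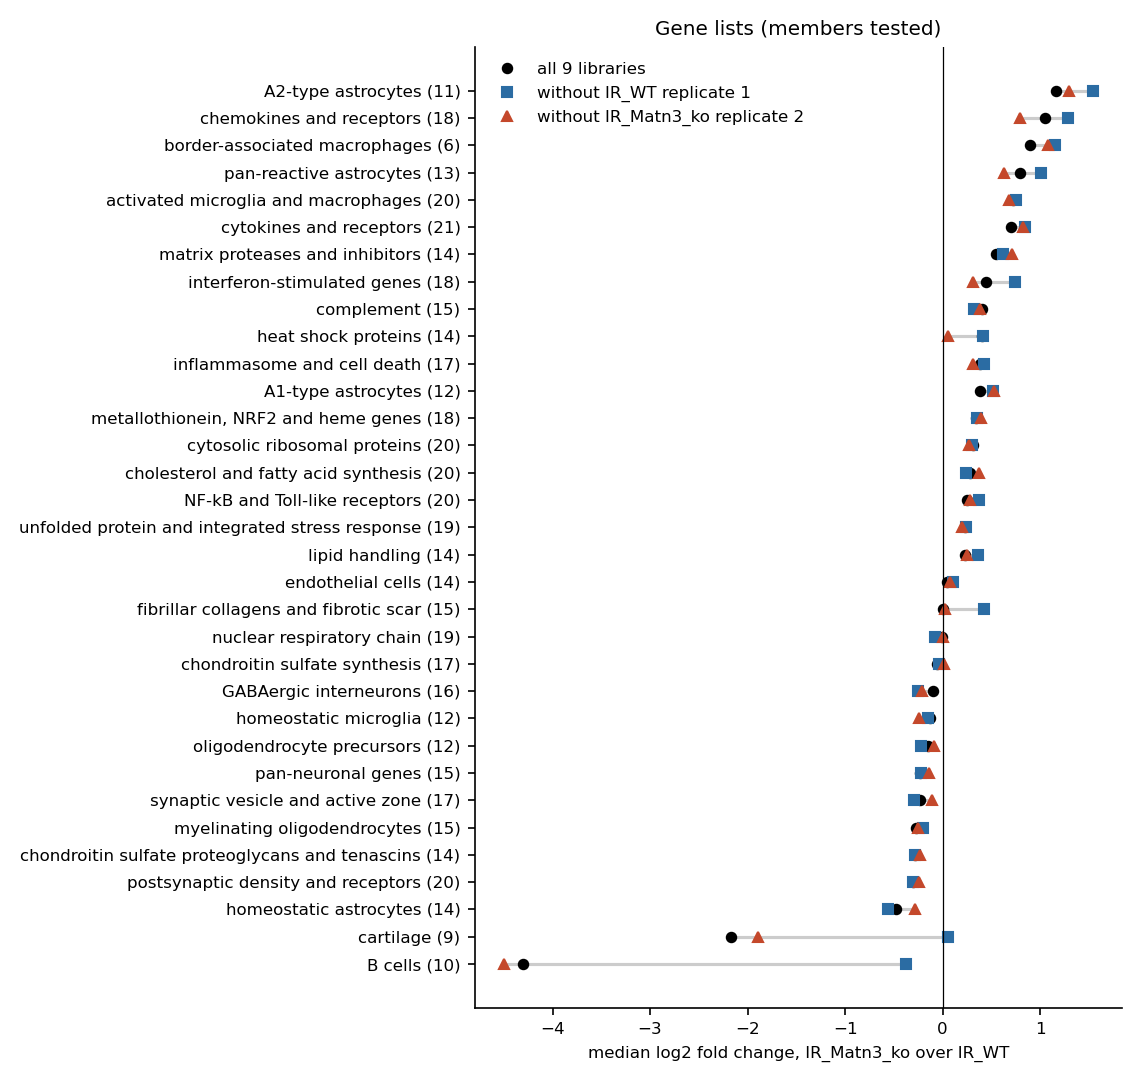
Median log2 fold change of IR_Matn3_ko over IR_WT (horizontal axis) for 33 gene lists (vertical axis, with the number of members tested), from the fit to all 9 libraries, without IR_WT replicate 1 and without IR_Matn3_ko replicate 2. Lists of A2-type astrocytes, chemokines and activated microglia lie to the right and homeostatic astrocytes to the left in all 3 fits, while B cell and cartilage genes lie far left only where IR_WT replicate 1 is included.

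Metallothionein, antioxidant and heme genes lay higher. Of 18 members 10 were separated upwards and none downwards, DESeq2 called 9, and the median log2 fold change was 0.34. Beside Hmox1 and Ftl1, the metal-binding Mt2 was at 60.6, 42.0 and 69.7 CPM in IR_WT and 129, 99.9 and 183 CPM in the knockout (log2 fold change 1.26 ± 0.24 SE; edgeR adjusted p = 0.116). Prdx1, a peroxide-reducing enzyme, was at 103, 108 and 119 CPM in IR_WT and 146, 164 and 149 CPM in the knockout (0.48 ± 0.08; adjusted p = 0.101). Both were without overlap, as were Mt1 (0.69), the thioredoxin reductase Txnrd1 (0.57) and the glutathione peroxidase Gpx1 (0.32).

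Lipid and protein synthesis genes showed smaller shifts. Of 14 lipid handling genes 6 were separated upwards, with Cd36, a fatty acid receptor of macrophages and endothelium, at 5.06, 3.30 and 2.56 CPM in IR_WT and 11.0, 8.28 and 18.5 CPM in the knockout (log2 fold change 1.79 ± 0.35 SE; edgeR adjusted p = 0.116). Cytosolic ribosomal protein genes were the most uniform list, with 17 of 20 separated upwards at a median of only 0.31, and 8 DESeq2 calls. Rps18, a small-subunit protein, was at 76.5, 78.6 and 74.4 CPM in IR_WT and 106, 104 and 94.0 CPM in the knockout (0.40 ± 0.07). Ribosomal protein genes have many processed copies, so reads may be shared among them. Of 20 cholesterol and fatty acid synthesis genes 8 were separated upwards (14 without IR_Matn3_ko 2) and 1 downwards (3 without IR_WT 1), among them Sqle (0.35) and Fdps (0.47) of the cholesterol pathway.

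Stress and energy genes were less clear. All 19 genes of the unfolded protein and integrated stress response had a positive fold change and 7 were separated, such as the transcription factor Atf4 at 94.9 to 98.6 CPM in IR_WT and 119 to 148 CPM in the knockout. The heat shock list had a median of 0.40 that became 0.06 without IR_Matn3_ko 2, and 2 of 14 were separated. Hspa1a, an inducible chaperone with a near-identical copy, was at 199, 393 and 91.8 CPM in IR_WT and 117, 541 and 250 CPM in the knockout, with full overlap. None of 17 hypoxia and glycolysis genes was separated, and of 19 nuclear respiratory chain genes 1 was separated downwards (5 without IR_WT 1). All 13 mitochondrially encoded genes had a negative fold change, but none was separated (median -0.22, or -0.10 without IR_WT 1).

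Of the chondroitin sulfate proteoglycan and tenascin genes, 9 had a negative and 5 a positive fold change. The list mixes genes of perineuronal nets with genes of injured tissue, so it does not measure the glial scar. Of 14 members 6 were separated downwards and 2 upwards, against a background of 8.44% and 9.42%, and DESeq2 called 5 lower and 1 higher. Hapln1, a link protein that ties hyaluronan to proteoglycans in perineuronal nets (chromosome 13, 89539796 to 89611652), was at 21.5, 20.5 and 21.6 CPM in IR_WT and 10.2, 12.7 and 12.8 CPM in the knockout. Bcan, the brain proteoglycan brevican (chromosome 3, 87987531 to 88000230), was at 109.5, 117 and 152 CPM in IR_WT and 86.0, 65.7 and 75.3 CPM in the knockout. Every knockout lay below every wild type, with log2 fold changes of -0.84 ± 0.13 and -0.74 ± 0.14 (SE; edgeR adjusted p = 0.0752 and 0.116). Both genes were higher in sham_WT than in IR_WT, at 25.2 to 32.4 CPM for Hapln1 and 165.5 to 187 CPM for Bcan. Hapln4, a second link protein (-0.72), Ptprz1, a receptor phosphatase gene that also gives the secreted phosphacan (-0.45), tenascin-R, Tnr (-0.43), and neurocan, Ncan (-0.19), were the others separated downwards.

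The 2 separated upwards were Dcn and Tnc. Decorin, Dcn, a small proteoglycan of fibroblasts (chromosome 10, 97479609 to 97518143), was at 21.6, 13.9 and 15.0 CPM in IR_WT and 40.5, 30.4 and 43.9 CPM in the knockout (log2 fold change 1.18 ± 0.25 SE; edgeR adjusted p = 0.12). Tenascin-C, Tnc, which injured tissue deposits, was at 37.3, 9.10 and 9.94 CPM in IR_WT and 39.3, 52.7 and 48.1 CPM in the knockout. IR_WT 1 nearly reached the knockouts, and the log2 fold change of 1.32 ± 0.56 (adjusted p = 0.354) became 2.30 (0.0602) without that library. Of 17 genes of chondroitin sulfate synthesis 1 was separated upwards (2 without IR_WT 1), and 2 downwards without IR_Matn3_ko 2. None of these counts stood above the share over all genes.

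Other matrix genes gave a mixed picture. Of 15 fibrillar collagen and fibrotic scar genes 1 was separated (4 without IR_WT 1), with a median of 0.01 that became 0.42 without that library. Cartilage genes went from a median of -2.17 to 0.06 without it. Of 14 matrix proteases and inhibitors 5 were separated upwards (8 without either of the libraries that stood apart) and 1 downwards, including the stromelysin Mmp3 at 7.69, 2.10 and 3.69 CPM in IR_WT and 11.4, 11.1 and 26.9 CPM in the knockout, and the macrophage elastase Mmp12 (log2 fold change 1.24). Neither passed (edgeR adjusted p = 0.203 and 0.412). The basement membrane collagen Col4a1 was at 99.0 to 121 CPM in IR_WT and 133 to 175 CPM in the knockout (0.54). Of 22 TGF-beta and BMP genes 2 were separated upwards (5 without IR_WT 1) and 1 downwards.

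Synaptic genes lay lower in the knockout by small amounts. Every one of 20 postsynaptic genes had a negative fold change, 11 were separated downwards, DESeq2 called 6, and the median log2 fold change was -0.31. Gria2, an AMPA-type glutamate receptor subunit (chromosome 3, 80681450 to 80802835), was at 595, 578 and 628 CPM in IR_WT and 454.5, 453.5 and 470.5 CPM in the knockout. The knockouts were close to each other and below every wild type (log2 fold change -0.39 ± 0.09 SE; edgeR adjusted p = 0.126). The AMPA receptor subunit Gria3 (-0.46), the GABA receptor subunit Gabrb2 (-0.66), and the NMDA receptor subunits Grin2a (-0.37) and Grin2b (-0.37) were separated as well.

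On the presynaptic side all 17 genes had a negative fold change and 6 were separated (12 without IR_WT 1), with 4 DESeq2 calls and a median of -0.23 (-0.11 without IR_Matn3_ko 2). Rims1, a scaffold of the active zone, was at 229, 241 and 232 CPM in IR_WT and 167, 184 and 179 CPM in the knockout, without overlap (-0.41 ± 0.09 SE; edgeR adjusted p = 0.12). The vesicle priming factor Unc13a (-0.46), the membrane fusion protein Stx1a (-0.35) and the calcium sensor Syt1 (-0.30) were separated too, while Snap25 overlapped, with its lowest value in IR_Matn3_ko 2. Of 15 pan-neuronal genes 3 were separated downwards (9 without IR_WT 1), and their sum was 13450 to 16640 CPM in IR_WT and 9265 to 13800 CPM in the knockout. Of the 16 interneuron genes 3 were separated downwards (7 without IR_WT 1), and of the 16 cortical layer genes 4, none upwards. Whether fewer neurons or less mRNA of these genes per neuron stood behind the synaptic values was not tested.

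Of 15 myelin genes 3 were separated downwards and 1 upwards (3 without IR_WT 1), with the myelin enzyme Cnp at 122, 128 and 110 CPM in IR_WT and 89.3, 83.8 and 95.4 CPM in the knockout (-0.42 ± 0.11 SE; edgeR adjusted p = 0.152). Endothelial genes as a list lay level, 8 of 14 with a positive and 6 with a negative fold change and a median log2 fold change of 0.05 (0.11 without IR_WT 1 and 0.08 without IR_Matn3_ko 2). Of them 4 were separated downwards and 1 upwards (3 without either library that stood apart). Slco1a4, an organic anion transporter of the blood-brain barrier (chromosome 6, 141805440 to 141856171), was at 57.9, 48.3 and 73.1 CPM in IR_WT and 30.4, 27.1 and 16.3 CPM in the knockout. Abcb1a, the efflux pump P-glycoprotein of that barrier, was at 35.4, 35.1 and 42.2 CPM in IR_WT and 27.3, 21.1 and 21.6 CPM in the knockout. Neither overlapped (log2 fold change -1.28 ± 0.23 and -0.69 ± 0.14; edgeR adjusted p = 0.114 and 0.116), and DESeq2 called both. Kdr, a receptor of vascular endothelial growth factor, was the 1 separated upwards, at 0.48. Of 12 pericyte and smooth muscle genes 2 were separated upwards and 1, Rgs5 (-0.26), downwards (3 without IR_WT 1).

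Some genes that are known to differ between inbred mouse substrains also differed between the knockout libraries. Of the 10 tested on that list 2 were separated upwards and 1 downwards, with a median log2 fold change of -0.12 (-0.05 without IR_Matn3_ko 2), and those described here were picked after their values were seen. Nnt, a mitochondrial transhydrogenase disrupted in a widely used substrain, was at 20.3, 12.9 and 9.43 CPM in IR_WT and 33.3, 13.7 and 31.4 CPM in IR_Matn3_ko 1 to 3. Gabra2, a GABA receptor subunit with a substrain variant that lowers it, was at 32.0, 50.1 and 46.9 CPM in IR_WT and 87.1, 36.5 and 77.8 CPM in the knockout. In both genes IR_Matn3_ko 1 and 3 were above every wild type and the library labelled IR_Matn3_ko 2 was within the wild-type range. Wdfy1 and Entpd4b had IR_Matn3_ko 2 between the other knockouts and wild type, at 30.4 CPM against 50.3 and 51.6 CPM, and at 66.7 CPM against 34.2 and 36.6 CPM. Cyfip2, a cytoskeletal regulator on the same list, did not show this order, at 1107, 942 and 1065 CPM in IR_WT and 931, 883 and 949 CPM in the knockout, with IR_Matn3_ko 2 lowest. The mitochondrial tRNA gene mt-Tg, picked after its values were seen, was at 8.91, 3.43 and 3.85 CPM in IR_WT and 0.353, 4.67 and 0.283 CPM in the knockout, the same libraries standing apart.

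**Figure D5:**
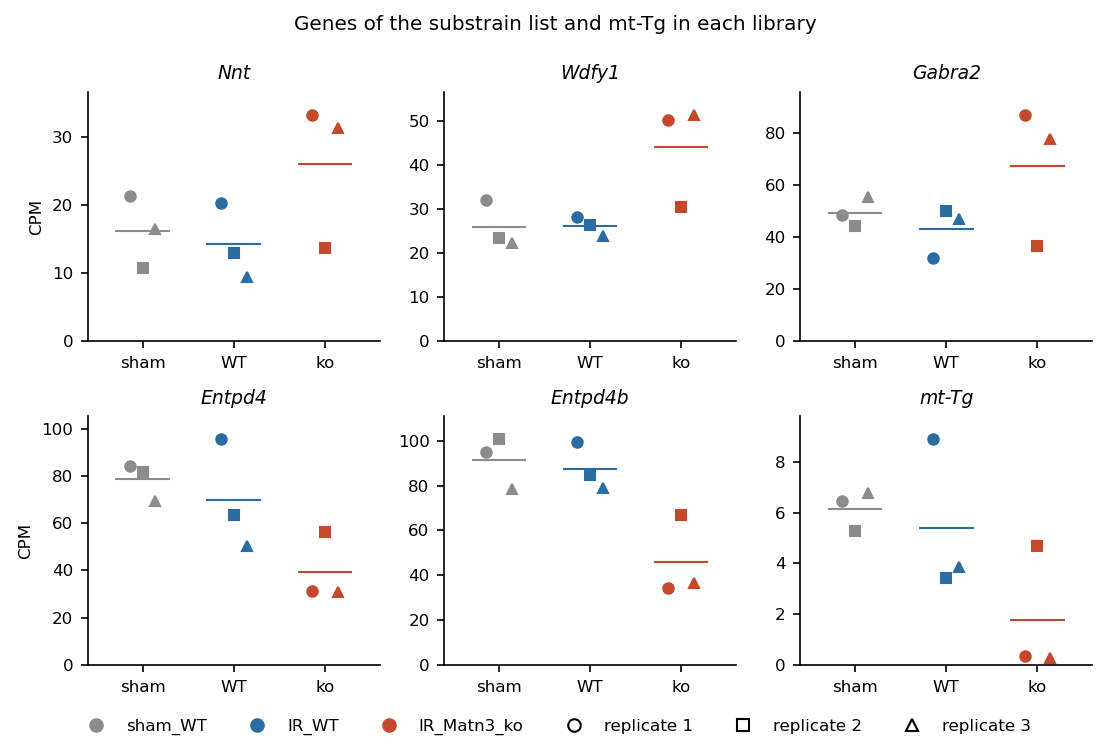
CPM (vertical axis of each panel, starting at 0) of 5 genes of the substrain list and of mt-Tg in sham_WT, IR_WT and IR_Matn3_ko, with 1 point per library, a marker shape per replicate and a line at the group mean. Replicates 1 and 3 of IR_Matn3_ko (circle and triangle) lie together and replicate 2 (square) lies near or toward IR_WT, for example at 13.7 CPM of Nnt against 33.3 and 31.4 CPM.

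Of the 35 genes edgeR called lower without IR_Matn3_ko 2, 22 lay in 1 stretch of chromosome 4 (41809083 to 42613253, GRCm38). Of those 22, 20 have clone or predicted names. Chromosome 4 held 1046 of the 17247 genes tested, and the number tested in the stretch was not counted. As neighbours, the 22 are not read as separate differences. IR_Matn3_ko 2 lay between IR_WT and the other knockouts in 21 of them and within the IR_WT range in 1. Chromosome 14 held 6 more of the 35. Genes near Matn3 were also examined, because a knockout carries the flanking chromosome of the line in which it was made. Of 72 genes tested within 10 Mb of it, 9 (12.5%) had an unadjusted p under 0.05 against 13.3% of all genes, and 3 were separated upwards and 4 downwards. Strain background and the Matn3 genotype cannot be told apart in these libraries.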

How the data were processed

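RNA was sequenced from peri-infarct or sham cortex of 3 mice per group, per the labels. The libraries were strand-marked and poly(A)-selected and carried molecular identifiers. The submitters' processing notes list DESeq2 and edgeR, the aligner HISAT2 2.0.4, cutadapt 1.9, StringTie 1.3.4d and UMI-tools, with the human build GRCh38. The gene coordinates are nevertheless mouse: 37764 of 37893 identifiers are in GENCODE M21 (GRCm38), and the coordinates of 92.0% are the same there. The authors deposited counts and FPKM per gene in 1 table, and neither the use of identifiers to remove duplicates nor that of strand in counting was stated. Where genes overlap or share near-identical copies, their counts are uncertain.

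Counts were fitted with edgeR 4.0.16 (R 4.3.3; TMM scaling, quasi-likelihood test, 9 libraries, 6 residual degrees of freedom) and adjusted by the Benjamini-Hochberg method over 17247 genes, with a threshold of 0.05. Alternatives were DESeq2 1.42.0, limma 3.58.1 on log2(FPKM + 1) and log2(FPKM + 0.1), other scaling and filters, the replicate block, and each library left out. On counts simulated for this comparison over 17247 genes, edgeR recovered 56 of 100 genes set to a 2-fold difference and 89 of 100 set to 4-fold, beside 7 wrong calls. DESeq2 recovered 69 and 91, beside 42 wrong calls. The simulation gave all groups the same mean per gene apart from the set differences, and held no libraries that stand apart. These rates may therefore not hold for the deposited libraries. Separated means that the 3 knockout CPM values all lay above, or all below, the 3 wild-type values. P-values of the fits set the difference between group means against the spread between these libraries. The deposited counts of libraries in a group differed beyond sampling noise, so none was merged. Genes were named where their p was among the 12 smallest, or as list members with the highest FPKM, and further members were picked after their values were seen. The members and the 62 lists were chosen with earlier results of these data known.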

Additional observations from a re-analysis of the deposited data

How the results depend on the processing

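The count of genes past the threshold depended on the test and on the libraries. Against 0 genes in edgeR with all 9 libraries, DESeq2 called 668, limma called 38 with a pseudocount of 1 and 15 with 0.1, and edgeR with both IR_WT 1 and IR_Matn3_ko 2 left out, an alternative chosen after seeing the data, called 253. DESeq2, likewise added after seeing the data, called 818 without IR_WT 1 and 566 without IR_Matn3_ko 2. Leaving out 1 library in turn gave 0 to 61 edgeR calls, and 4472 to 5138 separated genes against 3079. Median-ratio scaling, library totals alone, both other filters and the 6 ischemic libraries alone gave 0 calls in edgeR. The replicate numbers did not pair the libraries, since deviations from the group means of same-numbered libraries correlated at -0.24, 0.172 and -0.166 across genes, and the fit with the replicate block called 0 genes (smallest adjusted p 0.169). The Matn3 difference ranged from -0.173 to -0.0867 FPKM when 1 library was left out. Of the named genes, 3 changed sign. Over the fits with 1 library left out, the log2 fold change spanned -0.16 to 0.35 for Fcrls, -0.11 to 0.27 for Gfap and -0.31 to 1.06 for Hspa1a. Fcrls went from 0.14 to -0.16 without IR_Matn3_ko 2 (-0.15 with both left out, -0.17 in DESeq2), Hspa1a from 0.41 to -0.31 (-0.40 and -0.31), and Gfap from 0.06 to -0.04 without IR_WT 2, -0.11 without IR_Matn3_ko 1 and -0.02 without IR_Matn3_ko 3. The causes were not tested.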
